A study of Homo sapiens with 3 samples.

Results

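MEIS1 ChIP-seq called 377 promoter peaks in CWR22Rv1 cells without HOXB13 that overlapped no MEIS1 peak of the cells that kept HOXB13. They are called knockout-only promoter peaks here, and they are 377 of the 8015 peaks of both lists, which hold 2047 peaks for HOXB13ko-LV-MEIS1 cells and 5968 for LV-MEIS1 cells. The peaks were chosen by their presence in one list and absence from the other: each was annotated as promoter-TSS by HOMER, was not labelled a repeat, and shared not even 1 bp with an LV-MEIS1 peak. Both deposited lists are numbered without gaps, but the study's text describes a longer LV-MEIS1 list, against which fewer peaks could be knockout-only. No promoter peak carried a repeat label (0 peaks), so that clause of the rule removed none. The other 125 promoter peaks of the HOXB13ko-LV-MEIS1 list, which overlap an LV-MEIS1 peak, are called retained, and the 1070 promoter peaks of the LV-MEIS1 list that overlap no HOXB13ko-LV-MEIS1 peak are called LV-only.

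CWR22Rv1 is an established human prostate carcinoma line that was derived from a xenograft. LV-MEIS1 cells express exogenous MEIS1 from a lentiviral vector and keep endogenous HOXB13. HOXB13ko-LV-MEIS1 cells received the same vector after CRISPR knockout of HOXB13, in a pool recombined from knockout clones that carry an integrated Cas9. Both lines were grown for 48 h with puromycin, and the MEIS1 antibody was applied to 3 chromatin samples of LV-MEIS1 and 2 of HOXB13ko-LV-MEIS1. The authors pooled these before calling peaks, at 202428594 and 105763683 tags, and the headers of both lists name the same control, 39102495 tags of CWR22Rv1 input, which the labels give as untreated. Each line therefore has 1 list and no replicate error, and every test below takes peaks as units and compares these 2 lists, not cultures. A promoter with no LV-MEIS1 peak may hold signal under the calling threshold (q-value of 0.01), and signal tracks were not analysed here.

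MEIS1 is a homeodomain protein of the TALE class. It binds TGACA, most often as TGACAG, and pairs with HOX and PBX proteins on DNA, and HOXB13 is the HOX protein characteristic of prostate epithelium. Promoters of widely expressed genes are typically rich in CpG and carry binding sites of their own: ETS factors recognise CCGGAAG, bHLH proteins such as MYC, MAX and USF recognise the E-box CACGTG, SP and KLF factors recognise GGGCGG, and NF-Y recognises CCAAT. Genes for tRNAs are transcribed by RNA polymerase III from promoter elements inside the gene, the A box and the B box, and GGTTCGA is the core of the B box.

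The sequences below come from the summits, where the pileup of reads is highest, and show words that stood in a minority of these peaks. The lines give 61 bases of hg38 each, 5′ to 3′, on the strand given, with the matched word in capitals. The members are those of highest fold enrichment with an ETS word, an E-box and a B box in such a window free of annotated UTR.
ALKBH3, ETS word, chr11:43880717-43880777, plus strand: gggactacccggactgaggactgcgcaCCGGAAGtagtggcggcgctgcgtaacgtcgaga
USP30, ETS word, chr12:109052492-109052552, minus strand: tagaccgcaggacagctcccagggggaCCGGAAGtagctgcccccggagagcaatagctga
EBLN3P, E-box, chr9:37079531-37079591, plus strand: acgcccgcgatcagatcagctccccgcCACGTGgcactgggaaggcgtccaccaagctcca
RNF165, E-box, chr18:46333573-46333633, plus strand: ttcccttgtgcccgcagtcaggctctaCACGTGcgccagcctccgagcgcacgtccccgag
DPP9, B box of the tRNA gene TRV-CAC3-1, chr19:4724623-4724683, minus strand: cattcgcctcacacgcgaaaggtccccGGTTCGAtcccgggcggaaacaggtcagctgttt
HMGN4, B box of the tRNA gene TRR-ACG1-2, chr6:26537522-26537582, plus strand: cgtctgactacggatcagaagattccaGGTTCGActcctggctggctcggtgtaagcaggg

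For comparison, the next lines give the MEIS word TGACAG at the LV-only promoter peak of ZNF736, at the retained peak of DEPP1, and at the knockout-only peak with the highest fold enrichment that could be shown, near PLEKHG2.
ZNF736, LV-only, chr7:64313792-64313852, minus strand: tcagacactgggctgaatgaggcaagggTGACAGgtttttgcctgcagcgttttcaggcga
DEPP1, retained, chr10:44978836-44978896, minus strand: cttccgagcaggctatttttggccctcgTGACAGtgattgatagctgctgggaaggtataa
PLEKHG2, knockout-only, chr19:39412190-39412250, minus strand: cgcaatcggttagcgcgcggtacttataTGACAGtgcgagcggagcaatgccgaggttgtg
The PLEKHG2 peak also lay at a tRNA gene, TRI-TAT1-1. The DEPP1 sequence also holds the HOX-PBX word TGATTNAT.

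Fold enrichment, the scaled pileup at the summit divided by the local background (each plus 1), ran from 2.61 to 16.5 in the knockout-only peaks, with a median of 5.38 and quartiles of 4.59 and 6.34. The pileup was 15.2 to 70.6 with a median of 24.4, and −log10 q was 2.13 to 55.1 with a median of 7.88. These values entered the choice of the peaks and are given without a test. Within the HOXB13ko-LV-MEIS1 list, 7 of the 377 stood among the 100 peaks of highest fold enrichment, 58 (15.4%) in the upper 25% and 111 (29.4%) in the lower 25%, and the median over the whole list was 5.85. Retained promoter peaks had a median of 5.19 in the same list. LV-only promoter peaks had a median of 5.92 in their own list, which was scaled separately. Local background was at the genome-wide level of 2.90 in 139 of the knockout-only peaks (36.9%) and above 2 times that level in 57 (15.1%). All 377 had a −log10 p above the lowest of the LV-MEIS1 list (5.14), and 103 lay above the median of that list (15.6). Both lists passed a calling threshold and come from pools of different depth. These counts therefore do not show whether such peaks would be called in LV-MEIS1 cells.

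The share of peaks without an overlap was close to that of the whole list. Of all 2047 peaks called without HOXB13, 1591 (77.7%) had no counterpart in LV-MEIS1 cells, beside 377 of 502 promoter peaks (75.1%). At the edge of the rule, the peaks nearest to an LV-MEIS1 peak without touching it were those of EXD1 (3 bp away, fold enrichment 8.42), MIR658 (52 bp) and LOC51145 (106 bp). The promoter peaks left out with the smallest overlap were those of ILF2 (42 bp), MIR5087 (46 bp) and TMED1 (49 bp, fold enrichment 13.4).

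The MEIS core was scarce at knockout-only summits. Within 50 bp of the summit on either strand, TGACA stood in 29 of 377 peaks (7.69%, 95% Wilson interval 5.41 to 10.8). In flanking windows of equal length centred 500 bp to either side, the mean share was 12.6%, and the difference did not pass (p = 0.0769, the larger of the p-values for either flank from two-sided exact binomial tests on peaks with the word in just 1 of both windows). LV-only promoter peaks held TGACA in 595 of 1070 summits (55.6%, 52.6 to 58.6), with 15.7% in their flanks. The odds ratio of knockout-only against LV-only was 0.0666 (0.0431 to 0.0996, two-sided Fisher's exact test, p = 1.00e-67). Retained peaks held it in 39 of 125 summits (31.2%, 23.7 to 39.8), and the odds ratio against these was 0.185 (0.104 to 0.325, Fisher's exact test, p = 5.81e-10). Among 35116 RefSeq promoters (GRCh38.p14), 16.5% held TGACA in the 101 bases that end at the transcription start.

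The knockout-only peaks with TGACA closest to the summit were not among the highest. WDR11-AS1 and ZFP3 each had the word 3 bp from the summit, and their fold enrichments were 5.10 and 5.00. RC3H2 and PCSK6-AS1 had it at 9 bp, with 6.47 and 4.91. RC3H2 is an RNA-binding ubiquitin ligase. The 29 peaks with TGACA had a median fold enrichment of 5.29 (3.47 to 11.8), against 5.38 over all 377, and 1 of them was among the 15 highest. Their summits lay a median of -65 bp from the nearest start site.

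**Figure D1:**
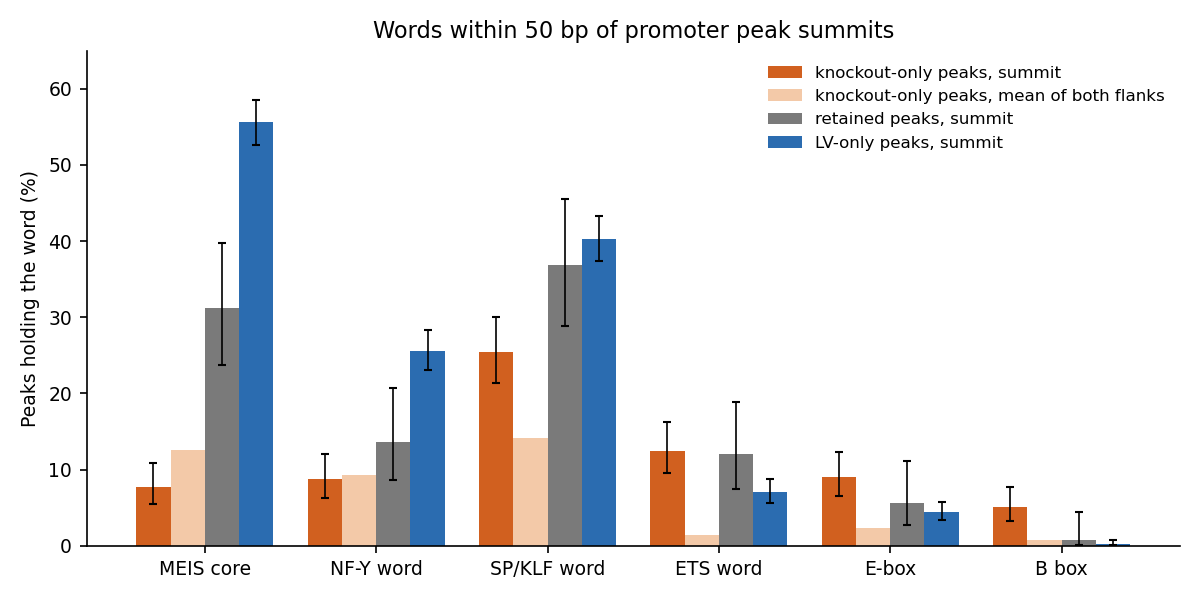
Share of promoter peaks (%, bars from 0) that hold each word within 50 bp of the summit, for 377 knockout-only, 125 retained and 1070 LV-only peaks, with 95% Wilson intervals as error bars; pale bars are the mean of both flanks of the knockout-only peaks. The MEIS core stands at 7.69% in knockout-only peaks and 55.6% in LV-only peaks, while the ETS word and the E-box stand higher in knockout-only peaks (12.5% and 9.02%) than in LV-only peaks (7.01% and 4.39%).

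Words of 3 other promoter factors were more frequent at knockout-only summits than beside them, a trait that is not particular to this class. Of 16 words tested with Benjamini-Hochberg adjustment over the 16, these 3 passed in exact binomial tests against the flanks, all of them higher at the summit. The ETS word CCGGAAG stood in 47 summits (12.5%, 9.51 to 16.2) and 1.46% of flanks (adjusted exact binomial p = 2.93e-07). The E-box CACGTG stood in 34 summits (9.02%, 6.53 to 12.3) and 2.25% of flanks (adjusted exact binomial p = 0.00121). The SP/KLF word GGGCGG stood in 96 summits (25.5%, 21.3 to 30.1) and 14.2% of flanks (adjusted exact binomial p = 0.00121). In RefSeq promoter windows of the same length, 5.63% held CCGGAAG and 3.45% held CACGTG. For the SP/KLF word this share was 31.4%, above the 25.5% of knockout-only summits. With windows of 25 bp to either side, only the ETS word passed (1 word), and the adjusted exact p was 0.0823 for both other words. GGGCGG also lost its call against the flanks at a fold enrichment of at least 5 (adjusted exact p = 0.157). LV-only summits likewise exceeded their flanks, at 7.01% against 1.68% (ETS), 4.39% against 1.45% (E-box) and 40.3% against 15.5% (GGGCGG). In retained peaks these shares were 12% against 1.2%, 5.6% against 1.2% and 36.8% against 13.6%.

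Against LV-only promoter peaks, 7 of the 16 words differed, 2 of them more frequent at knockout-only summits and 5 less frequent. The ETS word was higher, at 12.5% against 7.01% (odds ratio 1.89, 1.26 to 2.82, adjusted Fisher's exact p = 0.00444). The E-box was higher, at 9.02% against 4.39% (odds ratio 2.16, 1.32 to 3.49, adjusted Fisher's exact p = 0.00444). The ETS difference lost its call with a minimum fold enrichment of 5 and with windows of 25 or 100 bp (adjusted Fisher's exact p = 0.0912, 0.0883 and 0.0604). Retained peaks held the ETS word in 12% and the E-box in 5.6% of summits. The odds ratios of knockout-only against retained peaks were 1.04 (0.548 to 2.09) and 1.67 (0.704 to 4.58), and both intervals include equal odds.

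The words that were less frequent than at LV-only summits belong to MEIS1 with HOX partners and to 2 general promoter factors. TGACAG stood in 16 knockout-only summits (4.24%) and 38.8% of LV-only summits (odds ratio 0.0700, adjusted Fisher's exact p = 5.42e-44). This word contains TGACA, so the 2 are not independent. The HOX-PBX word TGATTNAT stood in 0 of 377 knockout-only summits, which allows a share of up to 1.01% (upper Wilson bound), and in 4.30% of LV-only summits (adjusted Fisher's exact p = 4.62e-06). The HOXB13 word TTTATTG likewise stood in 0 of 377, against 1.5% (adjusted Fisher's exact p = 0.0397), but LV-only flanks held it at 1.87%. The TTTATTG difference lost its call at a −log10 q of at least 5, with peaks within 500 bp counted as shared, at a fold enrichment of at least 5 and with windows of 25 bp (adjusted Fisher's exact p = 0.0578, 0.0621, 0.0771 and 0.267). CCAAT stood in 8.75% of knockout-only and 25.6% of LV-only summits (odds ratio 0.279, adjusted Fisher's exact p = 2.63e-12) and in 9.28% of the knockout-only flanks. GGGCGG, though above its flanks, was below the 40.3% of LV-only summits (odds ratio 0.507, adjusted Fisher's exact p = 1.16e-06). Retained summits held TGACAG in 16.8%, TGATTNAT in 2.4%, TTTATTG in 0%, CCAAT in 13.6% and GGGCGG in 36.8%. TTTATTG was thus absent from both classes of the HOXB13ko-LV-MEIS1 list. For CCAAT the odds ratio of knockout-only against retained peaks was 0.610 (0.316 to 1.22), an interval that includes equal odds. The unadjusted intervals for TGACAG, TGATTNAT and GGGCGG lay below equal odds.

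**Figure D2:**
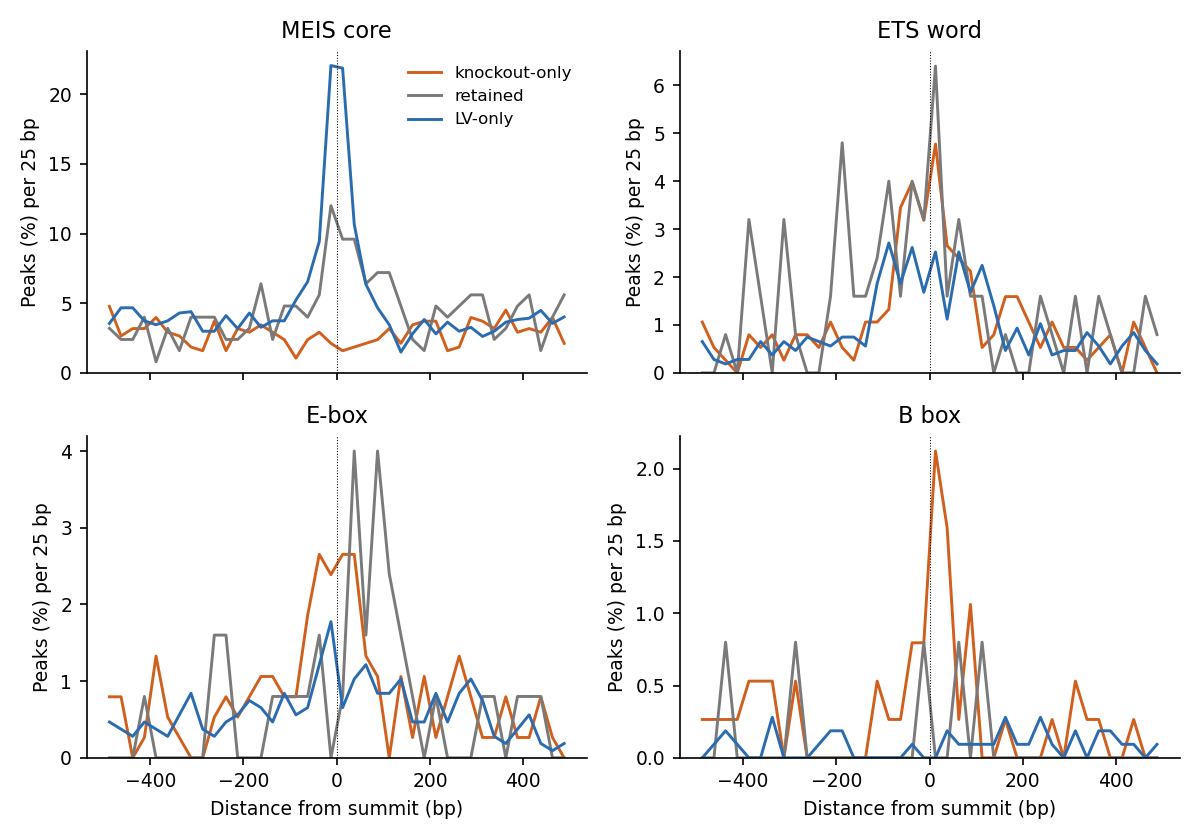
Share of peaks (%, per 25 bp bin) that hold each word at a given distance from the summit (bp), for knockout-only, retained and LV-only promoter peaks; each panel has its own vertical scale from 0. The MEIS core reaches 22.1% at LV-only summits and 12% at retained summits but 1.59% to 2.92% at the centre of knockout-only peaks, where the ETS word reaches 4.77% and the B box 2.12%; the line of the 125 retained peaks is uneven because few peaks fill a bin.

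Base composition also differed between knockout-only and LV-only summits. Summits of knockout-only peaks had a median GC content of 66.3% over 101 bp, with 56.4% and 54.5% in the flanks and 62.4% at LV-only summits. A summit was called CpG-rich when 201 bp around it held at least 50% GC and an observed over expected CpG ratio of at least 0.6. This held for 324 knockout-only peaks (85.9%, 82.1 to 89.1) and 728 LV-only peaks (68.0%, 65.2 to 70.8), an odds ratio of 2.87 (2.08 to 4.02, Fisher's exact test, p = 2.88e-12). Retained peaks had 86.4%, and the odds ratio against them was 0.962 (0.50 to 1.78, Fisher's exact test, p = 1). The part of base composition in the word shares was not tested.

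A group of 31 knockout-only peaks (8.22%, 5.85 to 11.4) had the summit within 50 bp of a tRNA gene. The promoter annotation named the nearest RefSeq transcript, so these peaks carry the name of a neighbouring gene. Retained promoter peaks had 2 such summits of 125 and LV-only peaks 0 of 1070. This grouping was made after the sequences were seen, and no test is given for it. The 31 genes belonged to 16 of the tRNA isotypes, and 18 of the 31 windows held the B box core GGTTCGA, which stood in 19 knockout-only peaks in all (5.04%, 3.25 to 7.74), 0.796% of their flanks, 1 retained peak, 2 LV-only peaks and 0.222% of RefSeq promoter windows.

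Peaks at tRNA genes were among the highest. Their fold enrichment had a median of 7.19 (3.35 to 16.5), against 5.29 in the other knockout-only peaks, and they made up 7 of the 15 highest. The highest of all was the peak named for the long non-coding RNA LINC02453 at chr12:98504083-98504433, with a fold enrichment of 16.5 and a −log10 q of 54.6. Its summit lay at TRW-CCA4-1, and an LV-MEIS1 peak with a fold enrichment of 6.16 in its own list stood 380 bp away. The peak named for HSPA6, a heat-inducible HSP70 chaperone, had 11.8 and lay at TRG-GCC2-1, and that of ANG, the ribonuclease angiogenin, had 10.8 and lay at TRP-TGG3-2. The peaks named for DPP9, a serine dipeptidase, and HMGN4, a nucleosome-binding protein, had 10.6 and 10.3. The remaining ones of the highest 15 were a pair named for the microRNA gene MIR4521, at TRW-CCA3-3 (10.9) and TRS-GCT4-3 (9.93). The peak at TRS-GCT4-3 tied for the last of these places with the peak of EBLN3P (9.93), which lay at no tRNA gene. The 51 bases around the summit were single-copy in hg38 for 20 of the 31 peaks at tRNA genes. Those of the HMGN4 peak at TRR-ACG1-2 (10.3) occurred 3 times, so reads within them cannot be assigned to 1 of the copies.

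Over the whole HOXB13ko-LV-MEIS1 list, not only its promoter peaks, 173 of 443 nuclear tRNA genes (39.1%) had a summit within 50 bp. In the LV-MEIS1 list, with more tags and more peaks, 14 did (3.16%). The knockout-only promoter peaks hold 31 of those genes. They differed from the other members in position and sequence as well: their summits lay a median of -408 bp from the nearest annotated start, 2 of 31 (6.45%) lay within 100 bp of it, and the median GC content was 49.8% over 201 bp. A further 8 knockout-only summits lay at other small RNA genes, among them VTRNA1-3 and VTRNA1-1 (vault RNAs, fold enrichment 8.70 and 6.71), RN7SL1 (the RNA of the signal recognition particle, 6.04), RNU12 (a minor spliceosomal RNA, 5.85), RNY1 (a Y RNA, 5.11) and SNORD118 (a small nucleolar RNA, 5.06). All small RNA genes together had 39 knockout-only peaks (10.3%), 7 retained and 2 LV-only.

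**Figure D3:**
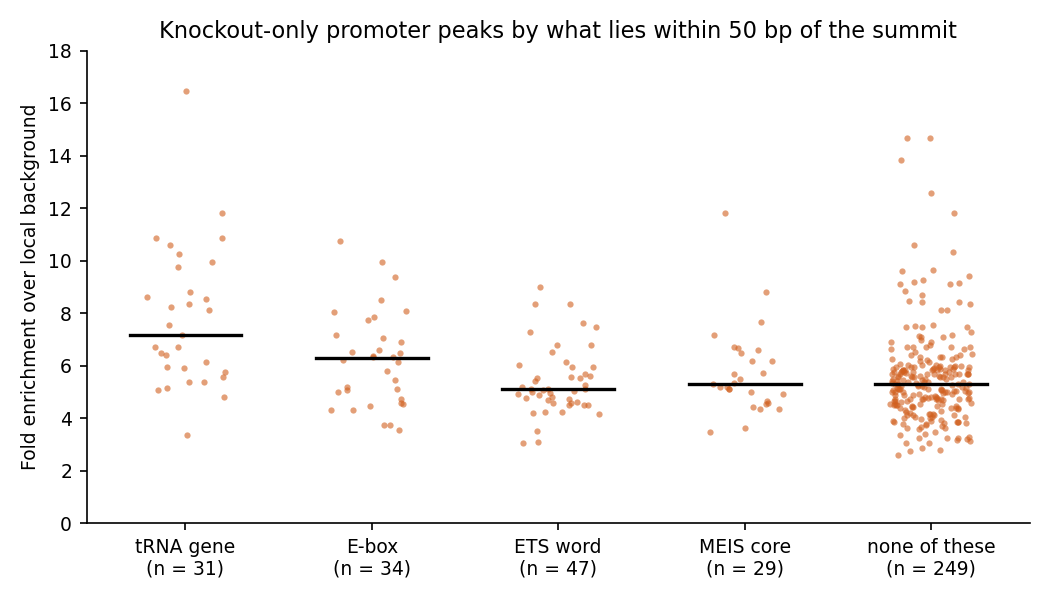
Fold enrichment over local background of knockout-only promoter peaks, grouped by what lies within 50 bp of the summit; each point is a peak, the line is the median, and peaks with several features appear in each of their groups. Medians are 7.19 at tRNA genes, 6.28 at E-boxes, 5.10 at ETS words, 5.29 at the MEIS core and 5.29 in the 249 peaks with none of these, and the groups overlap over most of their range.

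The ETS word and the E-box stood together in 1 peak, that of EIF5A2, a paralogue of the translation factor EIF5A, at a fold enrichment of 5.11. The words cover 80 peaks (21.2%), and with the tRNA genes 110 (29.2%). The 249 peaks without any of these words, TGACA included, or a tRNA gene make up 66.0%, with a median fold enrichment of 5.29. ETS peaks lay close to the start site: 37 of 47 (78.7%) had the summit within 100 bp, at a median of -31 bp. The highest were ALKBH3, a DNA and RNA demethylase (8.99), USP30, a mitochondrial deubiquitinase (8.37), and SMARCC2, a subunit of the SWI/SNF remodeller (8.33), whose summit also lay at the tRNA gene TRS-CGA4-1. E-box peaks lay farther out, with 13 of 34 (38.2%) within 100 bp and a median of -127.5 bp. The highest were STAG3, a meiotic cohesin subunit (10.8), EBLN3P (9.93), RNF165 (9.37) and TFDP1, the dimer partner of E2F factors (8.50).

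**Figure D4:**
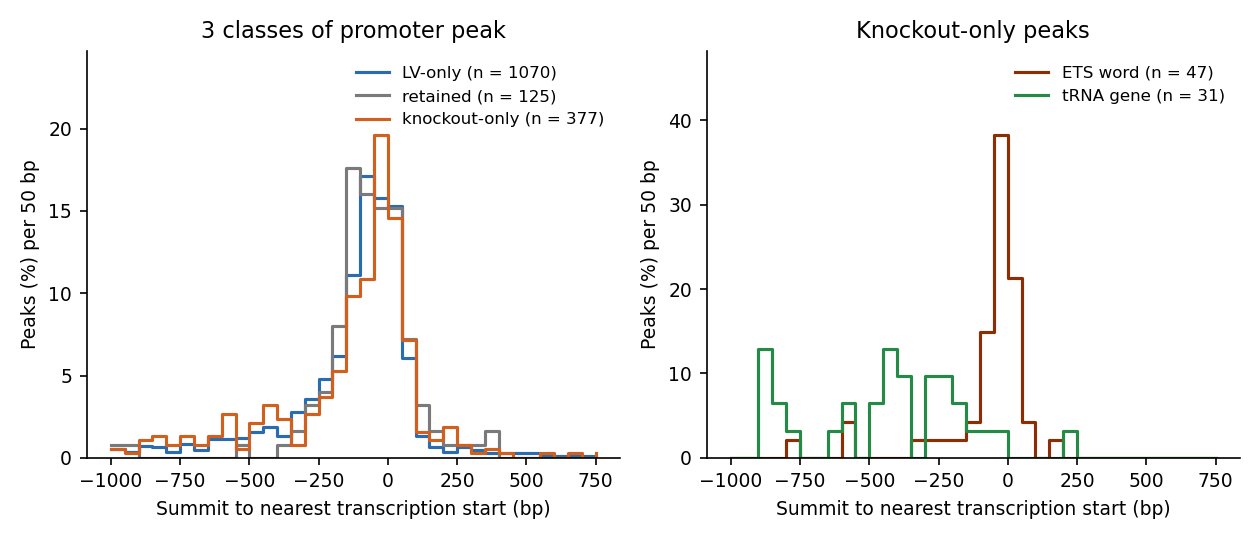
Distance of the summit to the nearest transcription start (bp, negative is upstream) as the share of peaks (%) per 50 bp bin; left, the 3 classes of promoter peak; right, knockout-only peaks with an ETS word and those at a tRNA gene. The 3 classes overlap around the start, ETS peaks gather at it (median -31 bp), and peaks at tRNA genes lie mostly upstream (median -408 bp).

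As a class, knockout-only peaks did not sit closer to start sites than LV-only ones. Their summits lay a median of -58 bp from the nearest start (-982 to 753, quartiles -205 and 12), and 268 (71.1%) lay upstream. Within 100 bp were 198 (52.5%), against 582 LV-only peaks (54.4%), an odds ratio of 0.928 (0.728 to 1.18, Fisher's exact test, p = 0.548). With a minimum fold enrichment of 5, knockout-only peaks were less often within 100 bp, at 45.6% against 54.9% (Fisher's exact test, p = 0.0124), and with peaks at small RNA genes left out the difference changed sign, at 56.2% against 54.3% (p = 0.573, Fisher's exact test). Starts of both strands within 500 bp of the summit were found at 83 knockout-only peaks (22.0%) and 206 LV-only peaks (19.3%), an odds ratio of 1.18 (0.877 to 1.59, Fisher's exact test, p = 0.261). Retained peaks had 25.6% and RefSeq promoters 13.1%.

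The gap to the nearest LV-MEIS1 peak is tied to the choice of the peaks, since any overlap was removed. It is not given for other peaks or promoters, so the counts that follow are a description without a baseline. The median gap was 104854 bp. An LV-MEIS1 peak lay within 1000 bp of 27 knockout-only peaks (7.16%), within 10000 bp of 55 (14.6%) and within 100000 bp of 185 (49.1%). Of the 27 within 1000 bp, 0 held TGACA at the summit, against 29 of the other 350 (8.29%). No test was run on these shares, and 27 peaks are too few to tell them apart. A gene annotated to a knockout-only peak was also annotated to some LV-MEIS1 peak in 59 cases (15.6%). The share of all genes annotated to an LV-MEIS1 peak was not computed, so this count cannot be called low or high. Among the 27 near neighbours was a peak at the MEIS1 locus, where the peak of the antisense RNA MEIS1-AS3 (chr2:66433999-66434487, fold enrichment 10.6) lay 835 bp from an LV-MEIS1 peak annotated to MEIS1 (7.35 in its own list). SPOP, a ubiquitin ligase adaptor often mutated in prostate cancer, had a knockout-only peak of 9.27 that lay 465 bp from an LV-MEIS1 peak of SPOP.

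Of the 377 peaks, 375 were annotated to 362 named genes, of which 13 had 2 peaks each, and 2 carried no gene name. By the type of the annotated gene, 311 peaks were assigned to protein-coding genes, 42 to non-coding RNAs and 14 to pseudogenes. The 311 include 24 of the 31 peaks at tRNA genes, which carry the name of a neighbouring gene. Apart from tRNA neighbours, the highest were TJP3, a tight junction scaffold (14.7), GLS2, a mitochondrial glutaminase (14.7), NRAV, a long non-coding RNA (13.8), TRIP4, a transcription coactivator (12.6), EXO5, a DNA exonuclease (11.8), STAG3, MEIS1-AS3 and ST20 (10.3). EBLN3P followed at 9.93. The lowest was CCNJ, a cyclin (2.61). Among genes with a pair of peaks, AGBL5, ALOXE3, ANG, DPP9, HMGN4 and MIR4521 had both at tRNA genes. CIART, a repressor in the circadian clock, had both at E-boxes (4.58 and 4.46). CITED2, a CBP/p300-binding regulator, had 6.33 and 5.80, the former at an E-box.

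Counts of gene groups are set beside the 298 of 20056 protein-coding RefSeq genes (1.49%) that were nearest to a knockout-only promoter peak. LV-only promoter peaks, a larger class, were nearest to 923 of these 20056 genes, so their counts have a higher background. No set test was run, and a count of so few genes is a description. Ribosomal protein genes had 5 of 89 (5.62%): RPS7 with a fold enrichment of 8.42, RPS20 with 6.33, RPL31 with 5.95, and RPS13 with 4.96, besides RPL6. Histone genes had 7 of 94 (7.45%), led by HIST2H2BE (5.74), HIST3H2A (4.73), HIST3H2BB (4.65) and HIST2H2AB (4.60). All of these histone genes lie in clusters on chromosome 1, some of their copies are near-identical, and the HIST2H2BE peak lay 182 bp from an LV-MEIS1 peak. Respiratory chain genes had 5 of 104 (4.81%), led by NDUFS7 of complex I (8.25, at the tRNA gene TRF-GAA1-6), ATP5MPL (5.95), COX16 (5.85) and NDUFS3 (5.57). LV-only promoter peaks were nearest to 7, 3 and 14 genes of these groups.

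Groups of other housekeeping genes held a few members each. Spliceosome and RNA-binding genes had 2 of 59 (3.39%, SNRPE and HNRNPU), and translation factors 2 of 70 (2.86%, EIF5A2 and EIF2D). The mitochondrial ribosome had 2 of 77 (2.60%, MRPL3 and MRPL36). Chaperones had 2 of 81 (2.47%), HSPE1 of the mitochondrial chaperonin (9.13) and HSPA6. Cyclins and replication genes had 2 of 98 (2.04%, CDC73 and CCNJ), and CDC73, matched by its symbol, is a subunit of the PAF1 complex that acts in transcription elongation. The proteasome had 1 of 50 (PSMD6). C2H2 zinc finger genes had 9 of 537 (1.68%), with ZNF75A at 8.13, ZNF839 at 6.71, ZNF143 at 6.66 and ZNF354C at 6.44, beside 72 genes with an LV-only promoter peak.

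In 5 groups no gene was the nearest to a knockout-only promoter peak. HOX and TALE genes had 0 of 54, since the peak at the MEIS1 locus was annotated to MEIS1-AS3. LV-only promoter peaks were nearest to 10 of them, beside 923 of all 20056 protein-coding genes. Prostate and androgen-responsive genes had 0 of 15, p53 targets 0 of 15, immediate early and stress factors 0 of 21, and proteoglycans 0 of 18. LV-only promoter peaks were nearest to 2, 2, 2 and 0 genes of these lists. At a background of 1.49%, lists of this size would hold few members.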

How the data were processed

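Each line has 1 deposited peak list and 1 HOMER annotation. Per the labels, the file headers and the study's methods, the authors used Trimmomatic, Picard for duplicate removal, Bowtie2 on hg38, and MACS2 2.1.2 on the pooled immunoprecipitations with the same input file in both headers (the study's methods mention input of each line), extending reads to 200 bp and scaling each pool to the input (factors 0.370 and 0.193). The deposited signal is the scaled pileup at the summit, the deposited fold enrichment its ratio to local background, and the deposited p-value and q-value are −log10 values. Background is the less precise term, since the input is the smallest library.

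Words were searched on both strands in hg38 within 50 bp of summits. The members and lists were chosen with earlier results of these data known. Tests were exact binomial tests on discordant peaks and Fisher's exact tests, checked on simulated data. Intervals are 95% Wilson or exact odds ratio intervals and cover counting error only. No promoter peak carried a CpG label (0 peaks), so CpG-rich was defined from sequence. Small RNA genes and starts came from GENCODE 44 and RefSeq. RefSeq held 374 of 375 members with a gene number, and 176 of 176 promoters compared were identical in hg38.

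Genes were named by rule: the 15 highest fold enrichments, the 5 with TGACA nearest the summit, up to 4 per group, 3 on each side of the overlap rule, the lowest, and up to 5 with a pair of peaks. Genes shown with sequences, further members of groups and highest ones with a word or at small RNA genes, and SPOP were chosen after their values were seen. A gene covered by the rule is not reported here. Alternatives were other filters, windows, flanks and overlap rules. Computations used Python 3.11.15 with numpy 2.4.6, pandas 2.3.3, scipy 1.17.1, pysam 0.24.0 and matplotlib 3.10.9.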

Additional observations from a re-analysis of the deposited data

How the results depend on the processing

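Of 83 comparisons of a result with its value under an alternative, 72 kept their direction and their side of the threshold, or a count within 1.5 times. A minimum fold enrichment of 5 left 241 peaks, and windows of 25 bp left 1 word past the test against flanks. The deficit of TGACA against flanks, not called at -4.91 percentage points, passed with windows of 100 bp (-9.28, exact binomial p = 0.0118) and with flanks 1000 bp away (-7.16, exact binomial p = 0.0186). The share within 100 bp of a start, -1.87 points against LV-only peaks, passed Fisher's exact test at a fold enrichment of 5 or more (-9.24, p = 0.0124) and changed sign without peaks at small RNA genes (1.91, p = 0.573, Fisher's exact test), an alternative chosen after seeing the data. Starts of both strands changed sign within 1000 bp (-0.997, p = 0.739, Fisher's exact test). The cause of these changes was not tested. The differences in TGACA and CpG-rich shares kept their calls under every alternative run. The CpG share by the deposited annotation gave no value. No paired analysis was possible because each line has 1 pooled list, so no immunoprecipitation could be left out either. Depth differs between the pools, and a missing LV-MEIS1 peak is no measure of absent signal.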

Other observations

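Exact copies elsewhere in hg38 were more common at these summits than at the other promoter peaks. The 51 bases around the summit had another exact copy for 39 of 377 knockout-only peaks (10.3%), 5 of 125 retained peaks (4.00%) and 22 of 1070 LV-only peaks (2.06%). A read that lies wholly within such a stretch cannot be assigned to 1 of the copies. Copies beyond the 51 bases were not searched. Among the 338 single-copy members, 20 lay at a tRNA gene, 7.40% held TGACA, 12.4% the ETS word and 10.1% the E-box.

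Words of 8 bases at knockout-only summits were ranked by their excess over the flanks, chosen on these values and given without a test. Forms of the ETS site led: ACTTCCGG stood in 25 peaks (6.63%) and 0.398% of flanks. CCCGCCCC stood in more peaks, 26 (6.90%), but also in 3.58% of flanks and 19.0% of LV-only summits. CAGGGGGC, whose letters occur in the consensus of the insulator protein CTCF, stood in 18 peaks (4.77%), 0.398% of flanks and 2.06% of LV-only summits. AGGGGGCG, which overlaps it, stood in 23 peaks (6.10%), 6.92% of LV-only and 8.80% of retained summits. GCGCCCCC stood in 24 peaks (6.37%) and 1.31% of LV-only summits.

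By chromosome, 58 knockout-only peaks (15.4%) lay on chromosome 1, which holds 10.3% of protein-coding RefSeq genes, and 37 (9.81%) on chromosome 12, which holds 5.11%. LV-only promoter peaks had 12.3% and 9.25% there, and retained peaks 29.6% and 16.8%. Chromosome X, with 4.23% of the genes, had 0 knockout-only and 9 LV-only promoter peaks (0.841%).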
